A study of Mus musculus with 12 samples.

Results

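Genes of the muscle acetylcholine receptor and of the neuromuscular junction were examined in C2i-Myog cells. These are C2C12 cells, a mouse myoblast line that fuses into myotubes in low serum, stably transfected so that doxycycline switches on a Flag-tagged cDNA for myogenin (Myog), a muscle transcription factor. The 10 genes were Chrna1, Chrnb1, Chrnd, Chrng, Musk, Rapsn, Lrp4, Dok7, Erbb3 and Ncam1. They were taken by symbol from transcript clusters, the probe sets that stand for 1 transcript unit, annotated to exactly 1 gene. Each of the 10 had 1 such cluster, among 19938 genes measured in this way. All groups carried the transgene and were kept for 48 h in differentiation medium with 1% horse serum, insulin and transferrin. Fetal calf serum at 10% is also listed for all groups. SB+Dox cells received SB203580, an inhibitor of p38α and p38β MAP kinases, at 10 µM together with doxycycline at 0.2 µg/mL. SB cells received the inhibitor alone, Dox cells doxycycline alone and control cells neither, with 3 Affymetrix arrays of total RNA in each group. The line was 1 transfected derivative, no nerve was present, and effects of doxycycline itself and of exogenous Myog cannot be told apart, because transgene-free cells were not treated. SB203580 was the single inhibitor, so effects through p38 and other effects of the compound cannot be told apart either.

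The muscle nicotinic receptor is a ring of subunits that opens when acetylcholine binds. Fetal and denervated muscle uses a γ subunit (Chrng), which the ε subunit (Chrne) replaces in innervated adult fibres. The α (Chrna1), β (Chrnb1) and δ (Chrnd) subunits are common to both forms. At the synapse the nerve releases agrin, which binds LRP4 and thereby activates the receptor tyrosine kinase MuSK. DOK7, a cytoplasmic adaptor, binds and activates MuSK, and rapsyn (Rapsn) anchors the receptors in clusters. ErbB3 is a receptor for neuregulins, and NCAM1 is an adhesion molecule that developing and denervated fibres carry along their surface. In differentiating myoblasts, myogenic bHLH factors, of which Myog is one, bind E-boxes (CANNTG) in the promoters of receptor subunit genes.

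Promoters of 3 receptor subunits and of Musk are shown because Myog binds DNA at E-boxes. They are those at hand with several E-boxes, and Chrna1 and Musk were called in none of the comparisons below. Promoter sequence from RefSeq (GRCm38.p6), running from 250 bases before to 50 bases after an annotated start, was at hand for 5 of the 10 genes. It is printed 5′ to 3′ on the gene's strand with each CANNTG in capitals. The Chrna1 window was chr2:73580289-73580588 on the minus strand, that of Chrng chr1:87205561-87205860 on the plus strand, that of Chrnb1 chr11:69795888-69796187 on the minus strand and that of Musk chr4:58285712-58286011 on the plus strand.
Chrna1: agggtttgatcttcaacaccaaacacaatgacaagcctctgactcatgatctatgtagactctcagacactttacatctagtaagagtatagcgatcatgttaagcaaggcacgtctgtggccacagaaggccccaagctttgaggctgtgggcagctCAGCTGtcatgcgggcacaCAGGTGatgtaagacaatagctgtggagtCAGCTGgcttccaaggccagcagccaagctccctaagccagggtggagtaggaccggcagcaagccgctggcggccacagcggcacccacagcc
Chrng: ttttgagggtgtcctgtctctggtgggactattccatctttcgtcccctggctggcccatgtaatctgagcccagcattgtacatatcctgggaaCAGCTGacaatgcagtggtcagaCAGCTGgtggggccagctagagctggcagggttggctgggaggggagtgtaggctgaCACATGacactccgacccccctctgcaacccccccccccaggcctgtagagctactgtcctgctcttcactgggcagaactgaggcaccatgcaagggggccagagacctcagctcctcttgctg
Chrnb1: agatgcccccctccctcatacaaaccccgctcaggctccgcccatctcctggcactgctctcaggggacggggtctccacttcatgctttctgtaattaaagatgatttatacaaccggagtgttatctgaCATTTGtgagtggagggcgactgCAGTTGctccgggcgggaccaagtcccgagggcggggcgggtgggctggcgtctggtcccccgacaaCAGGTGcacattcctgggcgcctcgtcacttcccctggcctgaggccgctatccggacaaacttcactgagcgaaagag
Musk: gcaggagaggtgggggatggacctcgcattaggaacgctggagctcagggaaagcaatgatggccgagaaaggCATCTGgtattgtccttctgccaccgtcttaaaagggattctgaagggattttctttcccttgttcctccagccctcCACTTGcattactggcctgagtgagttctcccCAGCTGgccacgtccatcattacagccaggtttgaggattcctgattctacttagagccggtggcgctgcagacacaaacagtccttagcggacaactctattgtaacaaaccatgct
Each of these 4 windows held 3 matches to CANNTG, a palindromic pattern that reads the same on both strands. Matches of this kind are common, since 72.3% of 32851 promoter windows of the same length held at least 1 and 17.6% held at least 3. The form CAGCTG was found 2 times in Chrna1, starting 92 and 44 bases before the annotated start, and 2 times in Chrng, at 155 and 132 bases before it. Musk held 1, at 68 bases before the start used for its window. Chrnb1 held 0, and its nearest E-box was a CAGGTG 29 bases before its window's start. In both genes that start lies inside the annotated gene span (Musk chr4:58285729-58377848, Chrnb1 chr11:69784036-69795966). The 3 Musk E-boxes and this CAGGTG therefore lie within the span, not upstream of it. At least 1 CAGCTG stood in 16.3% of all windows and at least 2 in 1.90%. The 2 windows of Dok7 held 1 and 0 matches to CANNTG. The CCGGAA element (the N-box bound by GABP, searched on both strands) was found 0 times in the windows of these genes and in 14.9% of all windows. Chrnd and Chrng are neighbours on chromosome 1 with 5740 bases between them (Chrnd at chr1:87190597-87200070, Chrng at chr1:87205811-87211835). The other receptor genes lie elsewhere, Chrna1 at chr2:73563281-73580338 and Chrnb1 at chr11:69784036-69795966.

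The deposited values are log2 RMA signals, on which a difference of 1 is a 2-fold change. Differences were tested with limma on 21789 clusters with 1 symbol, and a gene was called at a Benjamini-Hochberg adjusted p under 0.05 over all of them. Means are given with their SD over 3 arrays (n = 3 in every group) and differences with their SE. Whether the replicates of a group came from separate cultures is not stated, and the p-values therefore reflect the spread among these arrays alone, which may be technical. Array medians lay between 4.86 and 5.06. SB replicate 3 stood apart from the other SB arrays on the second principal component, at -8.47 against 20.26 for replicate 1 and 11.74 for replicate 2. SB replicate 1 was the lowest SB array on all 10 genes, while it was lowest on 31.1% of the tested clusters. Its mean over 10 muscle markers was 9.44, against 9.82 and 9.97 on the other SB arrays. Control replicate 2 was the highest control array on 9 of the 10 genes (32.2% of tested clusters), and control replicate 3 and SB+Dox replicate 1 were the lowest of their groups on 8 each (41.2% and 30.6% of tested clusters).

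Myog, which doxycycline was meant to induce, measured 8.33 ± 0.30 in SB+Dox, 7.70 ± 0.68 in SB, 10.37 ± 0.05 in Dox and 9.91 ± 0.26 in control. The SB label describes cells without Myog, yet a signal above the array median was measured on these arrays. The doxycycline change of Myog was 0.64 ± 0.25 with the inhibitor (adjusted p = 0.157) and 0.46 ± 0.25 without it (adjusted p = 0.467), and neither was called. Where the probes of this cluster lie relative to the transgene cDNA is not known here, so these values do not measure how far the transgene was induced. The muscle identity of the cells was borne out by desmin (Des), the intermediate filament protein of muscle, and Myod1, which averaged 11.32 and 9.91 over the 12 arrays.

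**Figure D1:**
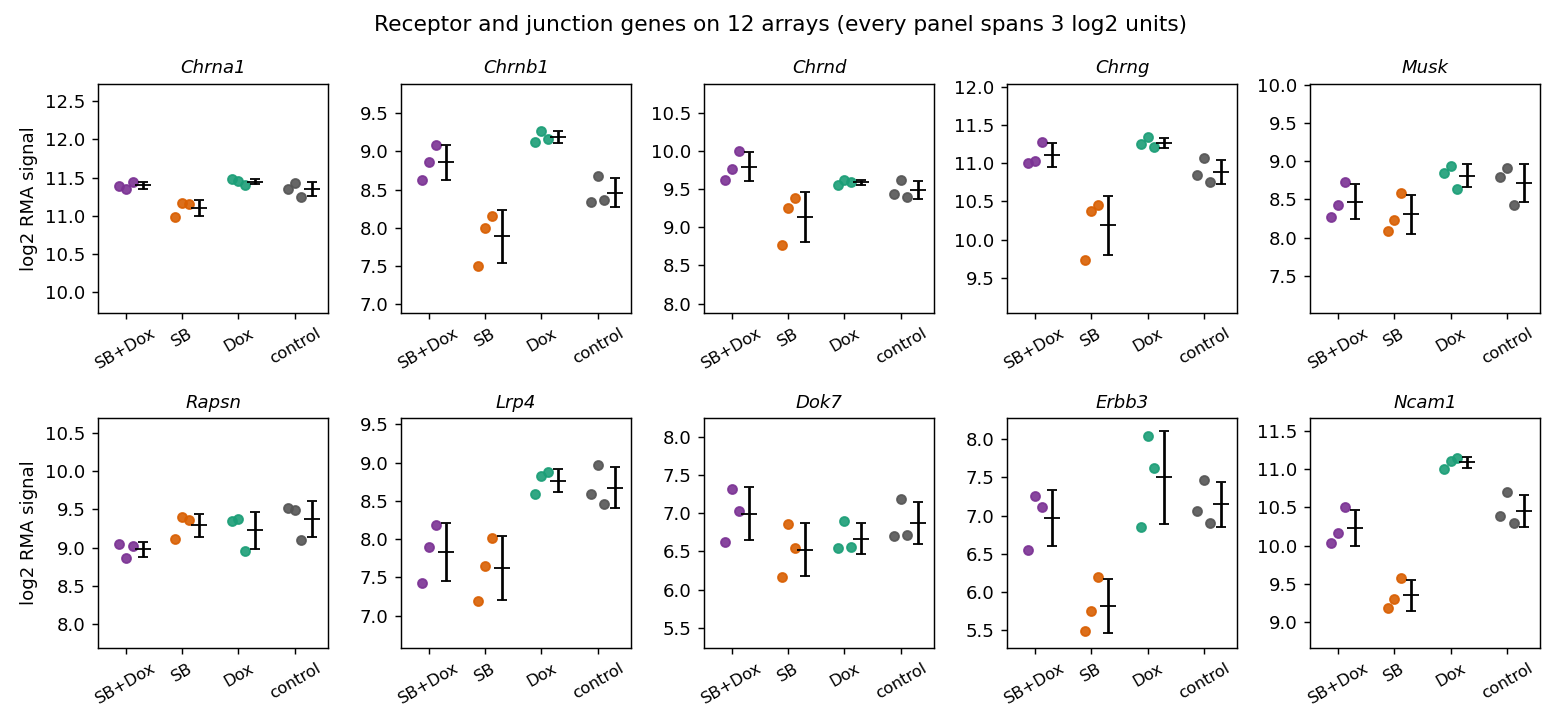
Log2 RMA signal (y axis) of each gene on each array (points, replicates 1 to 3 from left to right) with the mean and SD of 3 arrays (black) by group. Chrng, Chrnb1, Erbb3 and Ncam1 are lowest in SB, whereas Lrp4 is low in both SB+Dox (mean 7.83) and SB (mean 7.62).

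SB against control asks how junction genes differed between cells that received SB203580 and control cells, both without doxycycline. The fetal receptor subunit Chrng, the β subunit Chrnb1, the agrin co-receptor Lrp4, the neuregulin receptor Erbb3 and the adhesion molecule Ncam1 fell. Of the 10 genes 5 were lowered and 0 raised, where 3.87% of all tested clusters were lowered and 2.51% raised. The 10 differences were all below 0, with a median of -0.49, beside 0.03 over all tested clusters. In 7 of the 10 genes all SB arrays lay below all control arrays, as they did for 9.72% of tested clusters. Without SB replicate 1 the count was 4, with Chrng at -0.48, Lrp4 at -0.84, Erbb3 at -1.17 and Ncam1 at -1.02, and without SB replicate 3 it was 6, Musk being added. Without control replicate 2 the count was 3, as Chrnb1 and Chrng were no longer called.

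Among receptor subunits, Chrng measured 9.74, 10.37 and 10.45 on the SB arrays, against 10.84, 11.06 and 10.75 on the control arrays. All SB arrays lay below all control arrays, and Chrng was 1.62-fold lower in SB (log2 difference -0.70 ± 0.16, limma adjusted p = 0.0137). The call was lost without control replicate 2 (-0.61, adjusted p = 0.0685). Chrnb1 measured 7.50, 8.00 and 8.16 on the SB arrays, against 8.34, 8.68 and 8.37 on the control arrays. These groups did not overlap either, and Chrnb1 was 1.49-fold lower (-0.57 ± 0.16, adjusted p = 0.0439). That call lay close to the threshold and was kept in 9 of 21 alternative settings. It was lost among others without SB replicate 1 (-0.38, adjusted p = 0.175).

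The δ subunit Chrnd measured 8.76, 9.25 and 9.38 in SB, against 9.44, 9.62 and 9.40 in control, with no overlap but a gap of only 0.02 between the nearest arrays. Its difference of -0.35 ± 0.14 did not pass the test (adjusted p = 0.194), and its 95% interval ran from -0.66 to -0.05. Chrna1, the acetylcholine-binding subunit, measured 10.98, 11.17 and 11.16 in SB, against 11.36, 11.43 and 11.25 in control. The groups were again separate, and the difference of -0.24 ± 0.09 was not called (adjusted p = 0.142). It was called with an intensity trend in the variance (adjusted p = 0.0458). All 4 subunits thus lay lower on every SB array than on any control array, by 1.18- to 1.62-fold.

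On the agrin side, Lrp4 measured 7.19, 7.65 and 8.02 on the SB arrays, against 8.59, 8.97 and 8.46 on the control arrays. It was 2.08-fold lower (-1.05 ± 0.21, adjusted p = 0.00635) and stayed called in all 21 alternatives. Musk, the kinase that LRP4 activates, averaged 8.30 ± 0.26 in SB and 8.71 ± 0.25 in control. Its groups overlapped, and the difference of -0.41 ± 0.16 was not called (adjusted p = 0.167), although it was called without SB replicate 3 (-0.55, adjusted p = 0.0465) and with array weights (adjusted p = 0.00994). Dok7 averaged 6.52 ± 0.35 in SB and 6.87 ± 0.28 in control (difference -0.35 ± 0.20, adjusted p = 0.409). Rapsn averaged 9.29 ± 0.15 in SB and 9.37 ± 0.23 in control, and its 95% interval, -0.37 to 0.21, included 0.

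Erbb3 and Ncam1 had the deepest falls of the 10 genes. Erbb3 measured 5.50, 5.75 and 6.20 on the SB arrays, against 7.06, 7.47 and 6.91 on the control arrays, a 2.51-fold difference (-1.33 ± 0.27, adjusted p = 0.00700). The SB values of Erbb3 lie near the median of the tested clusters, 5.35, and no background level was at hand for this probe set. Ncam1 measured 9.18, 9.31 and 9.58 on the SB arrays, against 10.38, 10.70 and 10.29 on the control arrays, and was 2.15-fold lower (-1.10 ± 0.14, adjusted p = 2.21e-04). Both groups were separate in both genes, and both calls stood in all 21 alternatives.

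**Figure D2:**
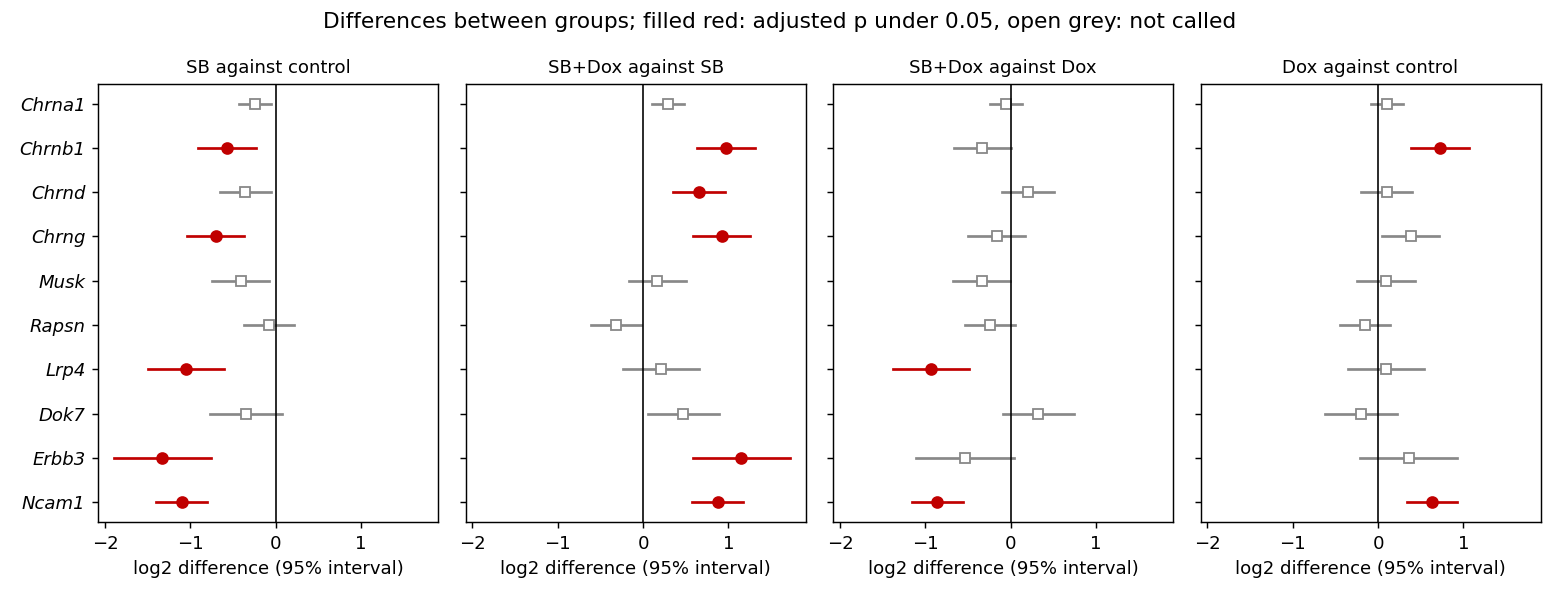
Log2 difference between groups (x axis, first group minus second) with its 95% interval for each gene in 4 comparisons. Filled red circles passed adjusted p under 0.05: 5 genes lowered in SB against control, 5 raised in SB+Dox against SB, 2 lowered in SB+Dox against Dox and 2 raised in Dox against control.

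The question of SB+Dox against SB is how junction genes differed when doxycycline was added to cells that received SB203580. The receptor subunits Chrnb1, Chrng and Chrnd rose, as did Erbb3 and Ncam1, while Lrp4, Musk, Dok7, Chrna1 and Rapsn did not pass the test. That makes 5 of 10 genes raised and 0 lowered, where 4.40% of tested clusters were raised and 2.71% lowered. The median difference was 0.56, beside -0.04 over all tested clusters. In 6 of the 10 genes all SB+Dox arrays lay above all SB arrays, as they did for 12.8% of tested clusters. Leaving out SB replicate 1 gave 4 raised genes, with Chrnd at 0.47 and Ncam1 at 0.79, and leaving out SB replicate 3 gave 6, Chrna1 being added. This comparison shares its SB arrays with SB against control, so the values of each are given side by side and their opposite signs are not read as a separate result.

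Chrnb1 measured 8.62, 8.86 and 9.09 in SB+Dox, against 7.50, 8.00 and 8.16 in SB. It was 1.96-fold higher (0.97 ± 0.16, adjusted p = 0.00190), on 3 of 3 arrays. Chrng measured 11.00, 11.03 and 11.28 in SB+Dox, against 9.74, 10.37 and 10.45 in SB, 1.89-fold higher (0.92 ± 0.16, adjusted p = 0.00241). Without SB replicate 1, the lowest array, the differences were 0.78 for Chrnb1 (adjusted p = 0.00713) and 0.70 for Chrng (adjusted p = 0.00515), so both rises were still called. Chrnd measured 9.61, 9.76 and 9.99 in SB+Dox, against 8.76, 9.25 and 9.38 in SB, 1.58-fold higher (0.66 ± 0.14, adjusted p = 0.0105). It was not called without SB+Dox replicate 3 (0.56, adjusted p = 0.0673) or with only these 6 arrays in the fit (adjusted p = 0.0537). Chrna1 measured 11.39, 11.35 and 11.45 in SB+Dox, above all SB arrays, and its difference of 0.30 ± 0.09 missed the threshold (adjusted p = 0.0591), passing it in 5 of 21 alternatives.

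Erbb3 measured 6.55, 7.25 and 7.11 in SB+Dox, against 5.50, 5.75 and 6.20 in SB. All SB+Dox arrays lay above all SB arrays, and the gene was 2.22-fold higher (1.15 ± 0.27, adjusted p = 0.0158). The call was lost without SB replicate 1 (0.99, adjusted p = 0.0814), SB replicate 2 (1.12, adjusted p = 0.0643), SB+Dox replicate 2 (1.01, adjusted p = 0.0711) or SB+Dox replicate 3 (1.08, adjusted p = 0.0743). Ncam1 measured 10.03, 10.16 and 10.50 in SB+Dox, against 9.18, 9.31 and 9.58 in SB, 1.84-fold higher (0.88 ± 0.14, adjusted p = 0.00162), with the call kept in all 21 alternatives.

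On the agrin side, Lrp4, Musk, Dok7 and Rapsn did not pass the test in SB+Dox against SB, while further genes of agrin and MuSK signalling are given below. Lrp4 measured 7.42, 7.89 and 8.18 in SB+Dox, against 7.19, 7.65 and 8.02 in SB. The groups overlapped, and the difference was 0.21 ± 0.21 (adjusted p = 0.595, 95% interval -0.23 to 0.66). Between same-numbered arrays Lrp4 was higher in SB+Dox by 0.24, 0.24 and 0.16, and with the replicate block it was still not called (adjusted p = 0.450). Musk differed by 0.17 ± 0.16 (95% interval -0.17 to 0.50), with same-numbered differences of 0.17, 0.20 and 0.13 and a blocked adjusted p of 0.560. Dok7 averaged 6.99 ± 0.35 in SB+Dox and 6.52 ± 0.35 in SB, a difference of 0.47 ± 0.20 (adjusted p = 0.181). Same-numbered SB+Dox and SB arrays deviated together, and Dok7 was called once replicate number entered the fit as a block (adjusted p = 0.00996). Rapsn was the single gene with a negative difference, at 8.98 ± 0.10 in SB+Dox and 9.29 ± 0.15 in SB. Its 3 SB+Dox arrays lay below its 3 SB arrays, and the difference of -0.31 ± 0.14 was not called (adjusted p = 0.205), except with array weights (-0.38, adjusted p = 0.0470).

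SB+Dox against Dox compares cells with and without SB203580, all of which received doxycycline. Lrp4 and Ncam1 fell, and no receptor subunit passed the test. The count was 2 of 10 lowered and 0 raised, where 3.43% of tested clusters were lowered and 6.97% raised. The median difference was -0.29, beside -0.03 over all tested clusters. Lrp4 measured 7.42, 7.89 and 8.18 in SB+Dox, against 8.59, 8.82 and 8.87 in Dox, 1.91-fold lower (-0.93 ± 0.21, adjusted p = 0.00825). Ncam1 measured 10.03, 10.16 and 10.50 in SB+Dox, against 11.01, 11.11 and 11.15 in Dox, 1.81-fold lower (-0.86 ± 0.14, adjusted p = 8.22e-04). Both genes had separate groups, and both calls stood in all 21 alternatives. The intervals of the receptor subunits bounded their differences to -0.24 to 0.14 for Chrna1, -0.67 to 0.01 for Chrnb1, -0.10 to 0.51 for Chrnd and -0.50 to 0.17 for Chrng. Erbb3 differed by -0.53 ± 0.27 (adjusted p = 0.280) and was called only without Dox replicate 1 (-0.86, adjusted p = 0.0377), the Dox array at 6.85 beside 8.05 and 7.62.

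Dox against control asks what doxycycline did without the inhibitor. Chrnb1 and Ncam1 rose and the other 8 genes did not pass the test, where 1.43% of tested clusters were raised and 3.88% lowered. Chrnb1 measured 9.13, 9.27 and 9.16 in Dox, against 8.34, 8.68 and 8.37 in control, 1.65-fold higher (0.72 ± 0.16, adjusted p = 0.0127). Ncam1 measured 11.01, 11.11 and 11.15 in Dox, against 10.38, 10.70 and 10.29 in control, 1.55-fold higher (0.63 ± 0.14, adjusted p = 0.0132). Both pairs of groups were separate, but the calls depended on single arrays. Without control replicate 1, control replicate 3 or Dox replicate 2, 0 of the 10 genes were called, with Chrnb1 at 0.66 to 0.68 (adjusted p = 0.0656, 0.0541 and 0.0581). Without Dox replicate 3, Ncam1 lost its call (adjusted p = 0.0621). Chrng measured 11.24, 11.34 and 11.22 in Dox, above all control arrays, with a difference of 0.38 ± 0.16 that was not called (adjusted p = 0.245). Chrna1 and Chrnd each differed by 0.10, with 95% intervals of -0.09 to 0.29 for Chrna1 and -0.20 to 0.40 for Chrnd.

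In SB+Dox against control, which sets doubly treated cells beside untreated ones, Lrp4 was the gene that passed the test among the 10, at 7.83 ± 0.38 in SB+Dox and 8.67 ± 0.27 in control (-0.84 ± 0.21, 1.79-fold lower, adjusted p = 0.0289). The call was lost in 6 of 21 alternatives, among them leaving out control replicate 2 (-0.69, adjusted p = 0.123) or SB+Dox replicate 1 (-0.64, adjusted p = 0.126). Across all tested clusters 2.42% were lowered and 2.84% raised. The receptor subunits differed by 0.05 for Chrna1, 0.39 for Chrnb1, 0.30 for Chrnd and 0.22 for Chrng, none of them called, and their intervals reached up to 0.24, 0.73, 0.61 and 0.55. Rapsn stood at 8.98 ± 0.10 in SB+Dox and 9.37 ± 0.23 in control, with no overlap, a difference of -0.40 ± 0.14 and adjusted p = 0.136. It was called without control replicate 3 (-0.53, adjusted p = 0.0493) and with array weights (adjusted p = 0.0105).

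The interaction (SB+Dox minus SB, less Dox minus control) was called for 0 of the 10 genes by limma, where 0.895% of tested clusters were called. At an unadjusted p under 0.05 there were 3 of the 10. The share of all clusters at that unadjusted threshold was not computed, so the 3 are not read as an excess. Chrnd had 0.56 ± 0.20 (95% interval 0.13 to 0.99, adjusted p = 0.273), Chrng 0.54 ± 0.22 (0.07 to 1.01, adjusted p = 0.352) and Dok7 0.67 ± 0.28 (0.08 to 1.27, adjusted p = 0.352). With the replicate block Dok7 was called (adjusted p = 0.0303). Apart from Dok7 in that fit, neither a larger doxycycline response under the inhibitor nor a like response was shown at this number of arrays.

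**Figure D3:**
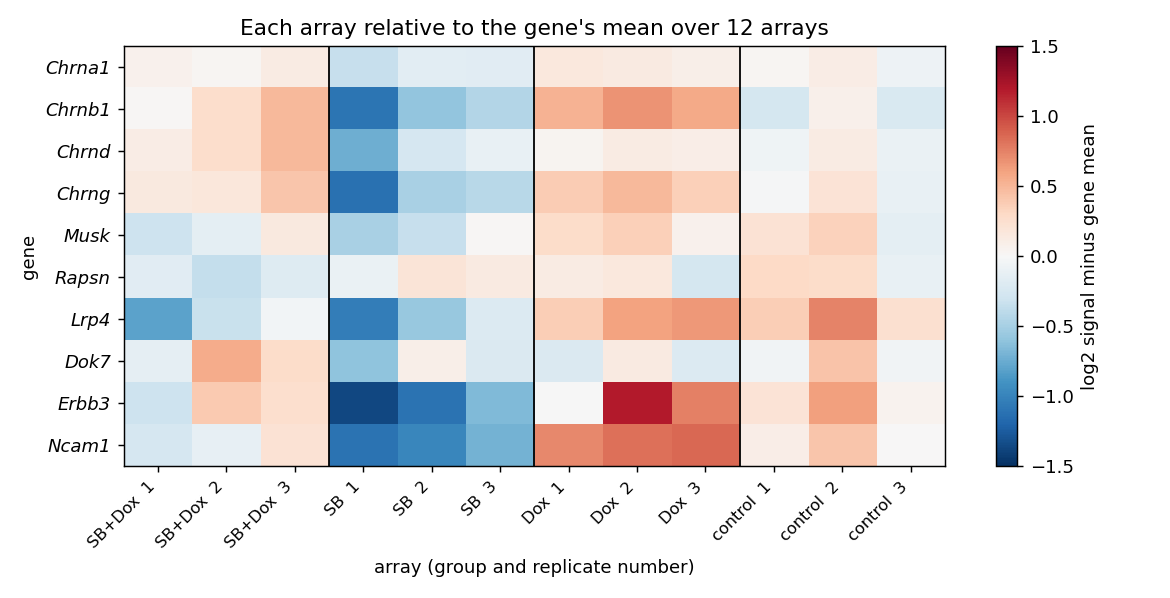
Log2 signal of each gene (rows) on each array (columns, group and replicate number) minus the mean of that gene over 12 arrays, from blue (lower) to red (higher). The SB arrays are blue for the receptor subunits, Erbb3 and Ncam1, most of all on SB replicate 1, while Rapsn follows another order with its lowest mean in SB+Dox (8.98).

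The order of the group means was SB, control, SB+Dox, Dox from low to high for Chrna1, Chrnb1 and Chrng. For Chrnd the last of these was SB+Dox instead of Dox. Of these steps, SB to control was called for Chrnb1 and Chrng, and no step between control, SB+Dox and Dox was called between neighbours of this order for any subunit. Musk, Lrp4, Erbb3 and Ncam1 shared the order SB, SB+Dox, control, Dox. Of its steps, SB to SB+Dox and control to Dox were called for Ncam1, SB+Dox to control for Lrp4, SB to SB+Dox for Erbb3 and none for Musk. Ncam1 spanned 1.73 between its highest and lowest group mean and Erbb3 1.69, against 0.35 for Chrna1 and 0.40 for Rapsn. Over the 12 arrays, Pearson correlations among the 4 subunits ran from 0.85 (Chrnb1 with Chrnd) to 0.98 (Chrna1 with Chrng), and that of Musk with Lrp4 was 0.89. Rapsn correlated with the subunits between -0.23 and 0.01. These are descriptions over 12 arrays in 4 groups, whose separation alone can set them.

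Among 1870 candidate genes with a range of at least 1 log2 unit, the mean of the 4 subunits was matched best by Tnni2, fast troponin I (Pearson r = 0.98), Tnnt2, cardiac troponin T (0.98), Tnfrsf23 (0.97), the ubiquitin ligase gene Sh3rf1 (0.97) and the heme oxygenase gene Hmox1 (0.97). Acta1, skeletal actin, was nearest to Chrna1 (0.98) and Tnnt2 to Chrng (0.99). Chrnb1 was most like Sh3rf1 and Tmem38b, a cation channel gene (0.98 each). The calcium-binding protein gene Hrc was nearest to Chrnd (0.96), followed by Ehd4 (0.96). Lrp4 was most like Acta2, smooth muscle actin (0.97), and Macc1 (0.97), and Musk most like the transporter gene Abcg2 (0.96) and Ptges3l (0.94). Ncam1 was most like Tmem62 and Nfkb2 (0.98 each), Erbb3 most like Sync (0.96) and Trio (0.96), and Rapsn most like Ube2l6 (0.84) and Pdgfrb (0.82). Dok7 was nearest to Mfap3l (0.81) and Tubb6 (0.77).

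Most muscle markers moved with the receptor genes, 9 of 10 being lower in SB against control and 7 higher in SB+Dox against SB. Of 10 markers of myoblasts and myotubes 5 were lowered and 1 raised in SB against control, and 5 were raised and 0 lowered in SB+Dox against SB. Among all tested clusters 3.87% were lowered and 2.51% raised in the former, and 4.40% raised and 2.71% lowered in the latter. Acta1 differed by -0.74 in SB against control (adjusted p = 0.00334) and by 0.95 in SB+Dox against SB (adjusted p = 7.39e-04). Ckm, muscle creatine kinase, differed by -0.96 (adjusted p = 0.0292) and 1.00 (adjusted p = 0.0214). Myh3, embryonic myosin heavy chain, rose by 1.63 in SB+Dox against SB (adjusted p = 0.00177), and Tnnt3, fast troponin T, by 0.63 (adjusted p = 0.0326). The other called markers were Itga7, a laminin-binding integrin, at -0.59 and 0.56 in the 2 comparisons, and in SB against control Myod1, M-cadherin (Cdh15, -0.52) and Myf5, a factor of undifferentiated myoblasts and the 1 marker that rose (0.60, adjusted p = 0.0210). Myod1, Cdh15 and Myf5 averaged lower in SB+Dox (9.25, 9.55 and 7.11) than in SB (9.73, 9.71 and 7.45), none of them called. The mean over the list ran from 10.13 to 10.32 across the SB+Dox arrays, 9.44 to 9.97 across SB, 10.10 to 10.34 across Dox and 10.03 to 10.37 across control. In bulk RNA, fewer differentiated cells and less of a transcript per cell cannot be told apart, and the part of the markers in the receptor results was not tested.

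**Figure D4:**
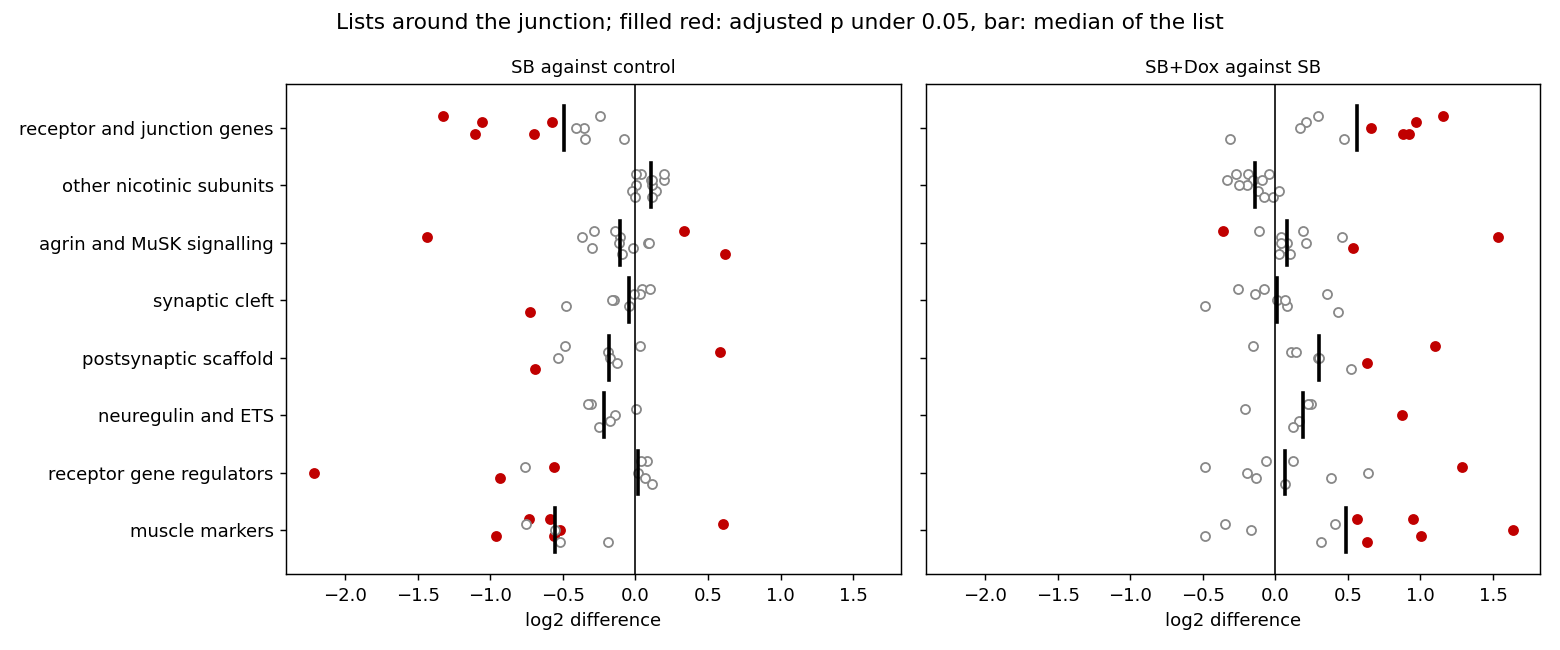
Log2 difference (x axis) of each measured gene in lists of junction genes (rows) in SB against control (left) and SB+Dox against SB (right). Filled red points passed adjusted p under 0.05 and black bars are list medians; the medians of the receptor and junction genes were -0.49 and 0.56, and those of the muscle markers -0.56 and 0.49.

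Other nicotinic subunits stayed low. All 12 of them, Chrne and the neuronal α and β subunits, had means over the arrays between 3.40 and 5.25, under the median of the tested clusters of 5.35, although probe signals of different genes are only roughly comparable. Of these 12, 0 were called by limma in any of the 6 comparisons, with 1 at an unadjusted p under 0.05 in the interaction and 0 in each of the others. Chrne, the adult ε subunit, averaged 4.74 in SB+Dox, 5.07 in SB, 4.92 in Dox and 4.95 in control.

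Further genes of agrin and MuSK signalling moved both ways. Of 13 measured, 2 were raised and 1 lowered in SB against control, and likewise 2 and 1 in SB+Dox against SB. Of all tested clusters 2.51% were raised and 3.87% lowered in SB against control, and 4.40% and 2.71% in SB+Dox against SB. These shares also stand beside the lists that follow. Small counts in such short lists are not read as results about a list. Macf1, a cytoskeletal linker that binds rapsyn at the junction, was lowest in SB (9.18 in SB+Dox, 7.64 in SB, 9.67 in Dox and 9.08 in control). It fell by 1.44 in SB against control (adjusted p = 8.28e-04) and rose by 1.53 in SB+Dox against SB (adjusted p = 6.95e-04). Cdk5, a kinase that disperses receptor clusters, rose by 0.62 in SB against control (adjusted p = 0.00131) and by 0.81 in SB+Dox against Dox (adjusted p = 7.11e-05). Dnaja3 (Tid1), a partner of MuSK, rose by 0.53 in SB+Dox against SB (adjusted p = 0.00575). Abl1, a tyrosine kinase downstream of MuSK, rose by 0.34 in SB against control (adjusted p = 0.0379) and fell by 0.36 in SB+Dox against SB (adjusted p = 0.0235). Agrn itself was not called in any comparison (6.25 in SB+Dox, 6.17 in SB, 6.03 in Dox and 6.09 in control).

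Of 9 genes of the synaptic cleft 1 was lowered in SB against control, the perlecan gene Hspg2, which fell by 0.73 (adjusted p = 0.00925), and 0 were called in SB+Dox against SB. Of 8 measured genes of the postsynaptic scaffold, SB against control raised 1 and lowered 1, and SB+Dox against SB raised 2. The syntrophin genes differed from each other: Sntb1 rose by 1.10 in SB+Dox against SB (adjusted p = 0.00599), whereas Sntb2 rose by 0.59 in SB against control (adjusted p = 0.00131). Dtna, α-dystrobrevin, rose by 0.63 in SB+Dox against SB (adjusted p = 0.00378), and the plectin gene Plec fell by 0.69 in SB against control (adjusted p = 0.0121). Utrophin (Utrn) was not called in either.

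Among 6 genes of neuregulin signalling and its ETS factors 0 were called in SB against control and 1 was raised in SB+Dox against SB. That was Etv5, an ETS factor needed for junction gene expression, which rose by 0.87 (adjusted p = 0.00695) on its brighter cluster and by 1.18 (adjusted p = 0.00284) on its other one. Erbb2, the partner of ErbB3, differed by -0.30 in SB against control and by 0.25 in SB+Dox against SB, neither called. Of 9 regulators of receptor genes in denervated muscle, 3 were lowered in SB against control and 1 was raised in SB+Dox against SB. Myog fell by 2.21 (adjusted p = 9.39e-05), Runx1, a factor induced by denervation, fell by 0.94 (adjusted p = 0.00200) and Myod1 fell by 0.56 (adjusted p = 0.0356). Gadd45a, a denervation-induced gene, rose by 1.29 in SB+Dox against SB (adjusted p = 0.00419).

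Of 9 motor neuron and nerve terminal markers 8 lay under the median of the tested clusters, with list means of 4.29 to 4.49 in SB+Dox, 4.57 to 4.81 in SB, 4.36 to 4.53 in Dox and 4.38 to 4.51 in control. Tubb3, a tubulin, was the exception and rose by 1.71 in SB against control (adjusted p = 0.00177) and fell by 1.31 in SB+Dox against SB (adjusted p = 0.00953), where Syt1, a synaptic vesicle protein gene, fell by 0.53 (adjusted p = 0.00694). Of 6 measured Schwann cell markers 5 lay under that median, among them Sox10 at 5.30 and S100b at 4.61, while Pmp22, which many cell types express, averaged 9.70. Of 7 fibroblast markers 4 lay under that median, while Col3a1, Col1a1 and Dcn averaged 9.77, 7.37 and 7.35 over the arrays. The mean over this list ran from 5.64 to 5.79 in SB+Dox, 6.11 to 6.26 in SB, 5.21 to 5.43 in Dox and 6.08 to 6.67 in control. In SB against control 1 of the 7 was raised and 1 lowered, Dcn at 1.56 (adjusted p = 0.0118) and Col1a1 at -2.49 (adjusted p = 6.10e-05). In SB+Dox against SB 1 was lowered, Col3a1 at -0.96 (adjusted p = 0.00100). The part of these markers in the receptor results was not tested.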

How the data were processed

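RNA of a mouse cell line was measured on 12 arrays. The authors deposited log2 signals made by RMA with Affymetrix Expression Console, per the submitters' processing notes, while software versions are not given in the sources used here. Of 35557 transcript clusters, 21789 carried 1 symbol, 1621 several and 12147 none, by the platform annotation, and only the first were tested. Group means were estimated with limma 3.58.1 in R 4.3.3 (8 residual and 6.56 prior degrees of freedom), with Benjamini-Hochberg adjustment within each of 6 comparisons, and it was tested on simulated data. The precision is limited by 3 arrays per group, and no signal over background was used. Gene lists, members and the rule for named genes (all members, up to 4 called genes of each list, the nearest genes by correlation, and Myog) were chosen with earlier results of these data known. Further list genes named without a call were chosen after their values were seen. The numbers pair SB+Dox with SB arrays, whose deviations from group means correlated at 0.44, 0.19 and 0.49. Over all group pairs 10 of 18 such correlations were over 0.1. Their median was 0.16, against -0.09 between arrays of unlike number. The main fit treated no comparison as paired, and the replicate block was an alternative.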

Additional observations from a re-analysis of the deposited data

Results flagged for a closer look

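The doxycycline change differed with and without the inhibitor for 4 of the further genes, Etv5 and Sntb2 of the junction lists, Col1a1 of the fibroblast markers and Pmp22 of the Schwann cell markers, by the limma interaction over all tested clusters (SB+Dox minus SB, less Dox minus control), where 0.895% of clusters were called. The difference was 1.14 ± 0.25 (SE) for Etv5 on its brighter cluster (adjusted p = 0.0480), with doxycycline changes of 0.87 with the inhibitor and -0.27 without it. On the other Etv5 cluster the difference was 1.57 ± 0.29 (adjusted p = 0.0251), with changes of 1.18 and -0.39. It was 0.59 ± 0.13 for Sntb2 (adjusted p = 0.04999), with changes of 0.14 and -0.44. It was 1.78 ± 0.38 for the fibroblast marker Col1a1 (adjusted p = 0.0434), with changes of -0.43 and -2.21. It was 0.93 ± 0.20 for Pmp22 (adjusted p = 0.0442). With Etv5 taken on its brighter cluster, all 4 lay close to the threshold, and the alternatives that follow were computed on that cluster. With quantile normalisation the number of clusters called in the interaction was 84, against 195 on the deposited values, and none of the 4 genes was called (adjusted p = 0.0748 for Etv5, 0.106 for Sntb2, 0.0812 for Col1a1 and 0.0794 for Pmp22). Of 18 alternatives, 6 kept the call of Etv5, 6 that of Sntb2, 8 that of Col1a1 and 7 that of Pmp22, with the sign kept in each.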

How the results depend on the processing

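Of 1250 values of single genes under alternatives, 1185 kept their direction and their side of the threshold, 36 lost a call, 14 gained one and 15 changed sign. Leaving out 1 array at a time, the number of the 10 genes called ran from 3 to 6 in SB against control, 3 to 6 in SB+Dox against SB, 2 to 3 in SB+Dox against Dox, 0 to 2 in Dox against control, 0 to 2 in SB+Dox against control, and 0 to 0 in the interaction. The low counts came without control replicate 2 in SB against control (3, as Chrnb1 and Chrng lost their calls) and without SB+Dox replicate 3 in SB+Dox against SB (3, as Chrnd and Erbb3 did). With every cluster tested the counts were 3 in SB against control, 0 in Dox against control and 0 in SB+Dox against control. Both the SE and the adjustment then changed, the SE of Chrnb1 in SB against control being 0.17 where it was 0.16. In SB+Dox against control the count was 0 with each array centred on its median and 2 with array weights (the cause was not tested). With the replicate block 1 gene was called in the interaction (Dok7, 0.67, adjusted p = 0.0303) and 6 in SB+Dox against SB, Dok7 being added, and the block moved no other count. All changes of sign were small and none was called. Among genes with such a change, leaving out 1 array at a time gave -0.093 to 0.33 for Lrp4 and -0.053 to 0.22 for Musk in the interaction, -0.0033 to 0.42 for Lrp4 in SB+Dox against SB, and -0.22 to 0.0062 for Rapsn in SB against control. In Dox against control the ranges were -0.018 to 0.24 for Lrp4 and -0.048 to 0.20 for Musk, and in SB+Dox against control -0.037 to 0.31 for Dok7 and -0.32 to 0.034 for Erbb3. With quantile normalisation Chrna1 was -0.012 in SB+Dox against control and Musk -0.0099 in the interaction (the cause was not tested). Over all clusters, centring on array medians gave 336 raised and 884 lowered in SB against control, where the deposited values gave 547 and 843, and 1188 and 370 in SB+Dox against SB, where they gave 959 and 591. Each of the 10 genes has 1 cluster, so averaging clusters left their differences as they were, while the fit and the adjustment were redone over genes. The interaction had 84 calls over all clusters with quantile normalisation (59 raised and 25 lowered), against 195 on the deposited values (158 and 37). Of genes other than these 10, only those with a called interaction were recomputed. No background correction could be varied, as scanner values were not used here.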
